A study of Citrus maxima with 12 samples.

Results

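The genes described here are 50 gene IDs of pomelo (Citrus maxima) whose mRNA was far more abundant in fruit of the cultivar Taoxi, both with and without black spot disease, than in diseased fruit of the cultivars Jinlan and Jinsha. They were picked from 30123 IDs that start with Cg in a table of 32863 IDs. The values that picked them were group means, taken as log2(mean FPKM + 1), where FPKM is the number of sequenced fragments per kilobase of gene, scaled to library size. A member had to be at least 2.5 higher in diseased Taoxi than in diseased Jinlan and than in diseased Jinsha, which is a factor of 5.66 in FPKM + 1. It also had to differ by less than 0.8 between diseased and control Taoxi (a factor of 1.74), and to have a mean of 0.5 FPKM or more in both Jinlan and Jinsha. Taoxi control 1 was left out of this choice. The difference between Taoxi and the other cultivars, and the likeness of the Taoxi states, were therefore set by the choice of members and are given as a description, with no test.

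RNA from fruit was sequenced in 12 libraries, 3 for each of 4 groups: control Taoxi, diseased Taoxi, diseased Jinlan and diseased Jinsha. The labels number the libraries of a group as biosamples 1 to 3, without giving the tree or fruit of each. The p-values therefore measure only how far these samples spread, and that spread may be technical. No control fruit was analysed here for Jinlan or Jinsha, so for those cultivars a low level in diseased fruit cannot be told apart from a low level in all fruit. The labels give no age, time after infection or part of the fruit.

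Pomelo is a large-fruited citrus species, and its cultivars are usually propagated by grafting, so that the trees of a cultivar share a genotype. Black spot is a disease of the fruit that leaves dark lesions on its surface. The level of an mRNA in bulk tissue depends on how much each cell holds and on which cells were sampled, and fewer cells of a type and less RNA per cell cannot be told apart in these libraries. Gene names, descriptions and coordinates are not paired with the IDs in the deposited table. The members are therefore given by ID, their functions are not stated, and the labelled tissue could not be checked against marker genes.

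The libraries summed to between 560349 and 577783 FPKM, with 21345 to 22431 IDs above 0. The read depth behind the values is unknown. One library stood apart from its label over these IDs. In the library labelled Taoxi control 1, which did not enter the choice, all 50 members were below every one of the other 5 Taoxi libraries, and 49 were above all 6 Jinlan and Jinsha libraries. Members were chosen to be high in those 5 libraries and low in those 6. The matching shares of all IDs were not computed, so these counts are a description. The values of Taoxi control 1 are described on their own further on, and the counts of calls are given with and without it.

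Of the 30123 IDs, 224 (0.744%) were at least 2.5 higher in diseased Taoxi than in Jinlan, 185 (0.614%) were so against Jinsha, and 127 were so against both. The limit on the Taoxi states removed 34 of these 127. In 20 of the 34 diseased Taoxi was above control by 0.8 or more, and in 14 it was below by as much. The floor of 0.5 FPKM removed another 43, which left the 50 members (0.166% of the IDs). The same limits in the opposite direction, with the floor set in diseased Taoxi, gave 59 IDs. A further 7 IDs that start with NewGene met the members' limits but lie outside the choice.

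The members ranged from scarce to very abundant mRNAs. In diseased Taoxi 2 members had a mean of 1000 FPKM or more, 21 a mean from 100 FPKM up to that, 26 a mean from 10 up to 100 FPKM and 1 a mean below 10 FPKM. Their median was 66.1 FPKM in diseased Taoxi and 79.7 FPKM in controls 2 and 3 of Taoxi, against 3.42 FPKM in Jinlan and 4.15 FPKM in Jinsha. Together they made up 1.41 to 1.53% of the summed FPKM in the diseased Taoxi libraries and 1.47 and 1.57% in Taoxi controls 3 and 2. In Jinlan they made up 0.124 to 0.128% and in Jinsha 0.166 to 0.171%.

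**Figure D1:**
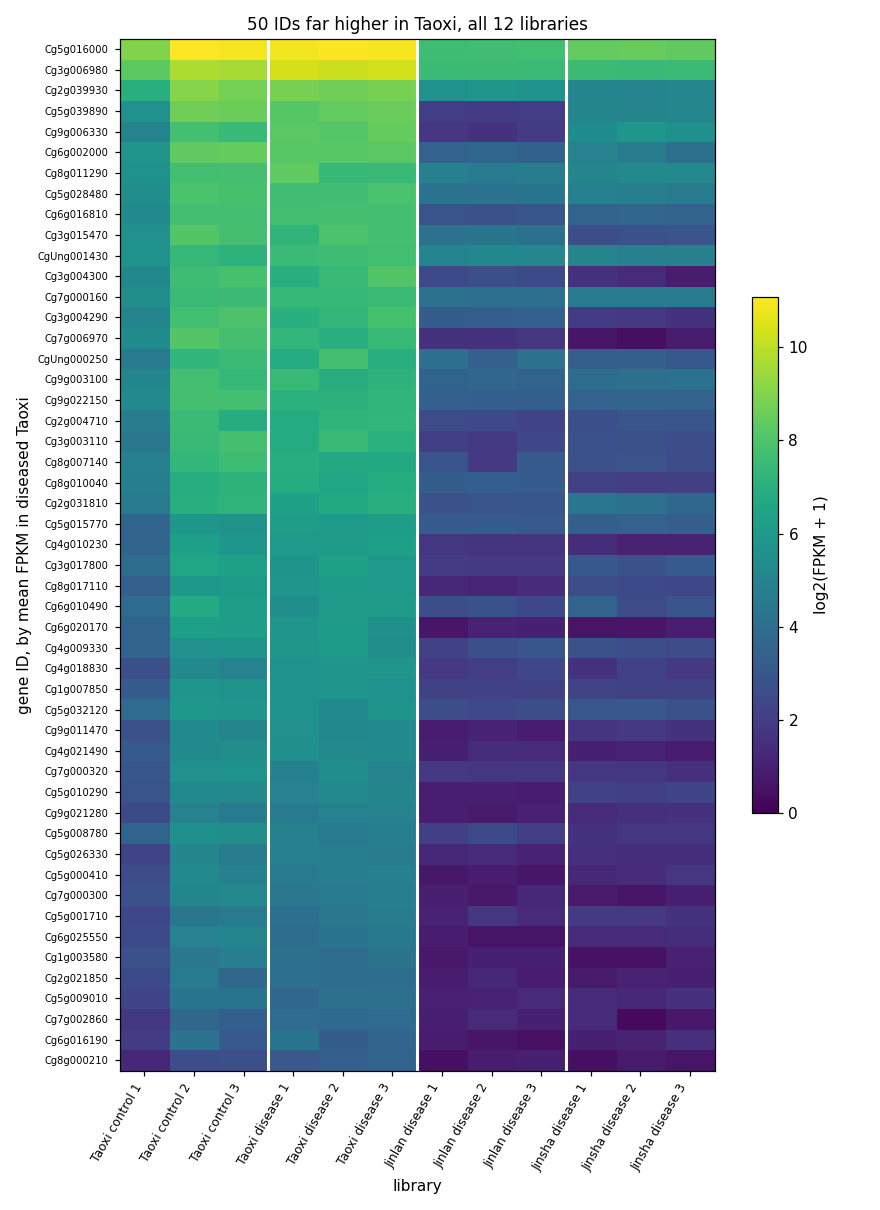
Level of each of the 50 members (rows, ordered by mean FPKM in diseased Taoxi) in each of the 12 libraries (columns, grouped by white lines), as log2(FPKM + 1). Taoxi controls 2 and 3 and the 3 diseased Taoxi libraries are bright, the Jinlan and Jinsha libraries dark, and Taoxi control 1 lies between them.

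The most abundant member was Cg5g016000. It stood at 2175 and 1942 FPKM in controls 2 and 3 of Taoxi and at 1905, 2076 and 1951 FPKM in diseased Taoxi. Jinlan held it at 200.4, 204 and 209.8 FPKM, below Jinsha at 340.1, 359 and 337 FPKM. This ID thus ranked 7 among all IDs by its mean in diseased Taoxi, 193 in Jinsha and 415 in Jinlan, so it was abundant in all 3 cultivars. Its mean in diseased Taoxi was 9.66 times that of Jinlan and 5.73 times that of Jinsha.

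Cg3g006980 was next, at 849.9 and 799.9 FPKM in controls 2 and 3 of Taoxi and at 1344, 1193 and 1284 FPKM in diseased Taoxi. In Jinlan it was at 187, 194 and 186 FPKM and in Jinsha at 194, 179 and 189.7 FPKM. The Jinlan and Jinsha libraries overlapped, and all 3 diseased Taoxi libraries lay above both controls.

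At the other end were Cg6g016190 and Cg8g000210. Cg6g016190 was at 17.5 and 7.46 FPKM in controls 2 and 3 of Taoxi and at 19.0, 8.68 and 11.2 FPKM in diseased Taoxi. It was at 0.842, 0.578 and 0.418 FPKM in Jinlan, and Jinsha held it at 0.951, 1.07 and 1.87 FPKM. Libraries of the same Taoxi group thus differed by more than 2 times, and every Jinlan library lay below every Jinsha library. The difference between Jinlan and Jinsha did not pass the test described further on. Cg8g000210 was at 5.15 and 5.56 FPKM in the controls and at 7.67, 9.58 and 11.03 FPKM in diseased Taoxi, against 0.356 to 0.945 FPKM in Jinlan and 0.386 to 0.746 FPKM in Jinsha.

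The gap between the cultivars differed widely among members. As a ratio of mean FPKM, diseased Taoxi was 5.93 to 128 times Jinlan (median 16.2) and 5.73 to 253 times Jinsha (median 13.7). Taking for each member the smaller of its log2 differences from Jinlan and from Jinsha, 19 members lay below 3, 21 between 3 and 4, and 10 at 4 or more. Over all 17362 IDs tested the median log2 difference was -0.15 against Jinlan and -0.04 against Jinsha. The lowest of the 5 Taoxi libraries was 3.28 to 55.0 times the highest of the 6 Jinlan and Jinsha libraries, with a median of 8.27.

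The widest gap on both sides belonged to Cg7g006970 and Cg3g004300. Cg7g006970 was at 278 and 226 FPKM in controls 2 and 3 of Taoxi and at 161, 131 and 179 FPKM in diseased Taoxi. In Jinlan it was at 2.12, 2.11 and 2.38 FPKM and in Jinsha at 0.609, 0.374 and 0.877 FPKM. Its rank by mean FPKM went from 651 in diseased Taoxi to 14721 in Jinlan and 17270 in Jinsha. Cg3g004300 was at 196 and 234 FPKM in controls 2 and 3 of Taoxi, at 121, 183 and 272 FPKM in diseased Taoxi and at 4.59, 5.50 and 4.69 FPKM in Jinlan, and Jinsha held it at 1.97, 1.48 and 0.864 FPKM. For both, every Jinlan library lay above every Jinsha library.

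Members just inside the limit looked much like IDs just outside it. Cg5g016000 and Cg5g008780 were the nearest inside, with smaller differences of 2.51 and 2.52. Cg5g008780 had means of 45.2 FPKM in controls 2 and 3 of Taoxi, 25.8 ± 2.68 FPKM in diseased Taoxi, 3.68 ± 0.820 FPKM in the Jinlan libraries and 2.30 ± 0.154 FPKM in those of Jinsha (SD, n = 3). Outside, Cg5g013480 (2.49) had 85.6 ± 7.35, 10.5 ± 0.844 and 14.4 ± 1.83 FPKM in diseased Taoxi, Jinlan and Jinsha (SD, n = 3). CgUng006050 (2.49) had 375 ± 6.31, 65.4 ± 2.36 and 66.2 ± 7.33 FPKM (SD, n = 3). A limit of 2 in place of 2.5 would take in 113 IDs and a limit of 3 would leave 31.

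**Figure D2:**
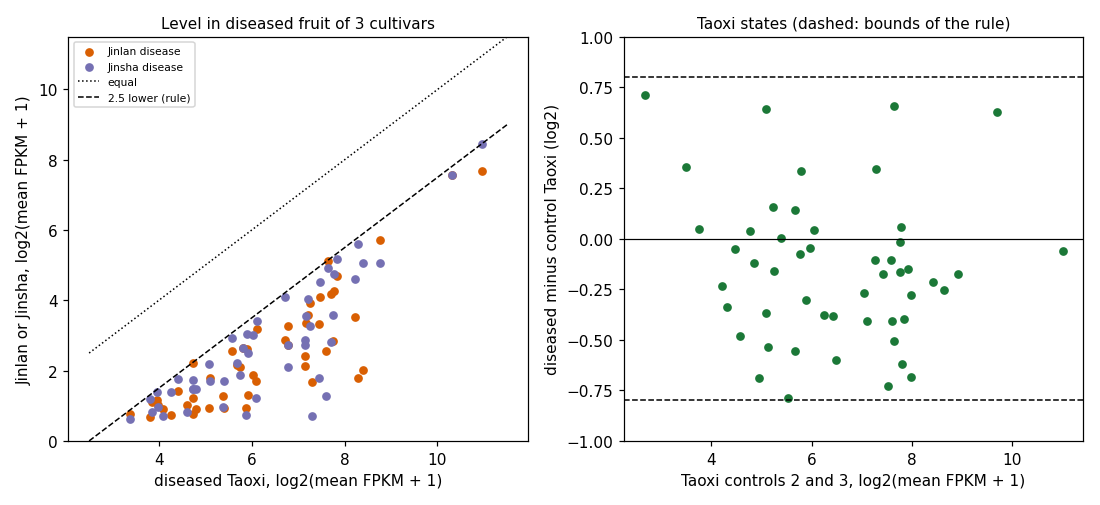
Left, mean level of each member in Jinlan (orange) and Jinsha (purple) against that in diseased Taoxi, all as log2(mean FPKM + 1); the dotted line marks equal levels and the dashed line the limit of 2.5. Right, diseased Taoxi minus Taoxi controls 2 and 3 (log2) against the level in those controls, with the limits of 0.8 dashed. With Taoxi control 1 left out, 36 of 50 members lie below 0.

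Within Taoxi most members were somewhat lower in diseased fruit than in controls 2 and 3, inside the limit that the choice had set. Taoxi control 1 held all 50 members below every diseased Taoxi library. The direction is therefore stated against controls 2 and 3 alone. The difference from these controls was below 0 for 36 members and above 0 for 14. Its median was -0.17 on the log2 scale, against 0.04 over all IDs tested. For 34 members the states differed by less than 0.4. The extremes were Cg5g008780 and Cg8g000210. The former was at 46.2 and 44.2 FPKM in controls 2 and 3 of Taoxi and at 28.0, 22.8 and 26.6 FPKM in diseased Taoxi, a difference of -0.79. The latter was 0.71 higher in diseased Taoxi. In neither did the 2 controls overlap with the 3 diseased libraries.

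Replicates of diseased Taoxi spread more over the members than over the IDs at large. The SD of log2(FPKM + 1) over these 3 libraries had a median of 0.19, against 0.12 over all IDs tested. The highest diseased Taoxi library was a median of 1.30 times the lowest. Diseased Taoxi 3 was the highest library for 25 members, diseased Taoxi 2 for 13 and diseased Taoxi 1 for 12. The matching shares of all IDs were not computed. The widest spread was that of Cg3g004300, in which diseased Taoxi 3 was 2.24 times diseased Taoxi 1, and of Cg8g011290. The latter was at 337 FPKM in diseased Taoxi 1 but at 174 and 175 FPKM in the other two, and at 211 and 228 FPKM in controls 2 and 3 of Taoxi. The spread within Jinlan and Jinsha was narrower on this scale, with median SDs of 0.12 and 0.14 against 0.09 and 0.10 over all IDs tested. The members were low in these cultivars, where log2(FPKM + 1) understates the spread.

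The choice used the Jinlan mean and the Jinsha mean, each against Taoxi, and not the difference between them. It bounded both from above and from below and so bounded how far apart they could lie, which the IDs at large were not. Shares of members are therefore printed beside those of all IDs as a description, with nothing read from the comparison. The difference between Jinlan and Jinsha within each member is the one contrast of labelled groups left to test. This was done with limma over 17362 IDs, using the 11 libraries without Taoxi control 1. All 50 members entered this fit. Each met its filter of 1 FPKM in 3 libraries through Taoxi, 43 would also meet it over the 6 Jinlan and Jinsha libraries, and 36 members had a mean of 1 FPKM or more in both Jinlan and Jinsha. Of the 50 members 20 (40.0%) were lower in Jinlan than in Jinsha and 8 (16.0%) were higher (limma, adjusted p below 0.05), and 22 did not pass. Over all IDs tested 16.0% were lower and 33.5% were higher in Jinlan. The median difference, Jinlan minus Jinsha, was -0.23 over the members and 0.11 over all IDs tested. With the filter set on the Jinlan and Jinsha libraries, 7 members dropped out, none of which had passed. Of the remaining 43 members 20 were lower, 8 were higher and 15 did not pass (limma, adjusted p below 0.05), against 16.6% lower and 34.8% higher over the IDs then tested, and the members' median was -0.37.

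With median-ratio scaling, which moved the median of all IDs by -0.11, 22.6% of all IDs were lower and 21.3% higher in Jinlan, and 24 members were lower and 8 higher, with a median of -0.31 over the members. Upper-quartile scaling, quantile normalization and TPM gave 22, 25 and 22 members lower and 8 higher each. Over all IDs these gave 20.0, 19.7 and 16.0% lower and 25.3, 27.9 and 32.3% higher. The counts changed when Taoxi control 1 entered the fit. With it, in its labelled group, the median standard error of the members rose from 0.14 to 0.52. In that fit of 12 libraries 2 members were lower and 0 higher (limma, adjusted p below 0.05). Over all IDs it called 8.01% lower and 17.0% higher in Jinlan. A fit of the 6 Jinlan and Jinsha libraries alone, which holds no Taoxi library, gave 24 members lower and 9 higher, against 17.5% lower and 35.7% higher over all IDs.

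The members lower in Jinlan had a median ratio of Jinsha to Jinlan of 2.11, and 7 of the 20 differed by 1 or more on the log2 scale. Cg9g006330 led them. It was at 2.40, 2.01 and 2.91 FPKM in Jinlan, and Jinsha held it at 40.8, 55.2 and 46.3 FPKM, against 303, 285 and 350.1 FPKM in diseased Taoxi and 215 and 181 FPKM in controls 2 and 3 of Taoxi. With Taoxi control 1 left out, the 3 cultivars formed 3 separate levels, with Jinsha at 15.2% and Jinlan at 0.780% of the diseased Taoxi mean. Taoxi control 1 stood at 30.8 FPKM, below every Jinsha library. The log2 difference, Jinlan minus Jinsha, was -3.81 ± 0.13 (SE, limma adjusted p = 2.14e-08).

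Cg5g039890 showed the same order. It was at 3.20, 2.96 and 3.08 FPKM in Jinlan, at 32.5, 31.9 and 33.6 FPKM in Jinsha, at 284, 344 and 372 FPKM in diseased Taoxi and at 407 and 389 FPKM in controls 2 and 3 of Taoxi. Apart from Taoxi control 1, at 48.3 FPKM, replicates of a cultivar lay within a narrow band. The cultivars were about a factor of 10 apart, at 0.924% of diseased Taoxi in Jinlan and 9.79% in Jinsha. The difference between Jinlan and Jinsha was -3.04 ± 0.09 (SE, limma adjusted p = 1.13e-08). These were the only 2 of the 50 members that also passed in the fit of all 12 libraries, with adjusted p = 0.00124 for Cg9g006330 and 0.00668 for Cg5g039890 (limma). The abundant Cg5g016000, described above, was also lower in Jinlan, with a difference of -0.75 ± 0.08 (SE, limma adjusted p = 2.49e-05).

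The 8 members higher in Jinlan had a median ratio of Jinlan to Jinsha of 2.73. Cg3g004290 had the largest difference. It was at 8.63, 9.26 and 9.49 FPKM in Jinlan, and Jinsha held it at 2.79, 2.55 and 2.09 FPKM, with 131, 160.2 and 231 FPKM in diseased Taoxi and 208 and 251 FPKM in controls 2 and 3 of Taoxi. Its log2 difference was 1.55 ± 0.17 (SE, limma adjusted p = 3.72e-05), and it missed the threshold with all 12 libraries (limma adjusted p = 0.0933). Cg3g015470 was at 16.4, 18.6 and 15.9 FPKM in Jinlan, and Jinsha held it at 5.27, 5.94 and 6.82 FPKM. In Taoxi it stood at 276 and 225 FPKM in controls 2 and 3 and at 154, 247 and 219 FPKM in diseased fruit. Its difference between Jinlan and Jinsha was 1.36 ± 0.16 (SE, limma adjusted p = 5.49e-05, and 0.0778 with all 12 libraries).

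Cg7g006970 and Cg3g004300, the members farthest from Taoxi on both sides, were among the 8, with differences of 0.99 ± 0.14 and 1.30 ± 0.25 (SE, limma adjusted p = 0.000166 and 0.00140). The 22 members that did not pass had differences from -0.50 to 0.61. Among them Cg3g006980 had a difference of 0.01 ± 0.07 (SE, limma adjusted p = 0.896). Cg6g016190 had the lowest, at -0.50 ± 0.31 (SE, limma adjusted p = 0.202), though its Jinlan libraries all lay below those of Jinsha. Without regard to the test, the Jinlan libraries lay wholly below the Jinsha libraries in 24 members (20.3% of all IDs tested) and wholly above in 9 (41.4% of all IDs), while in 17 they overlapped.

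**Figure D3:**
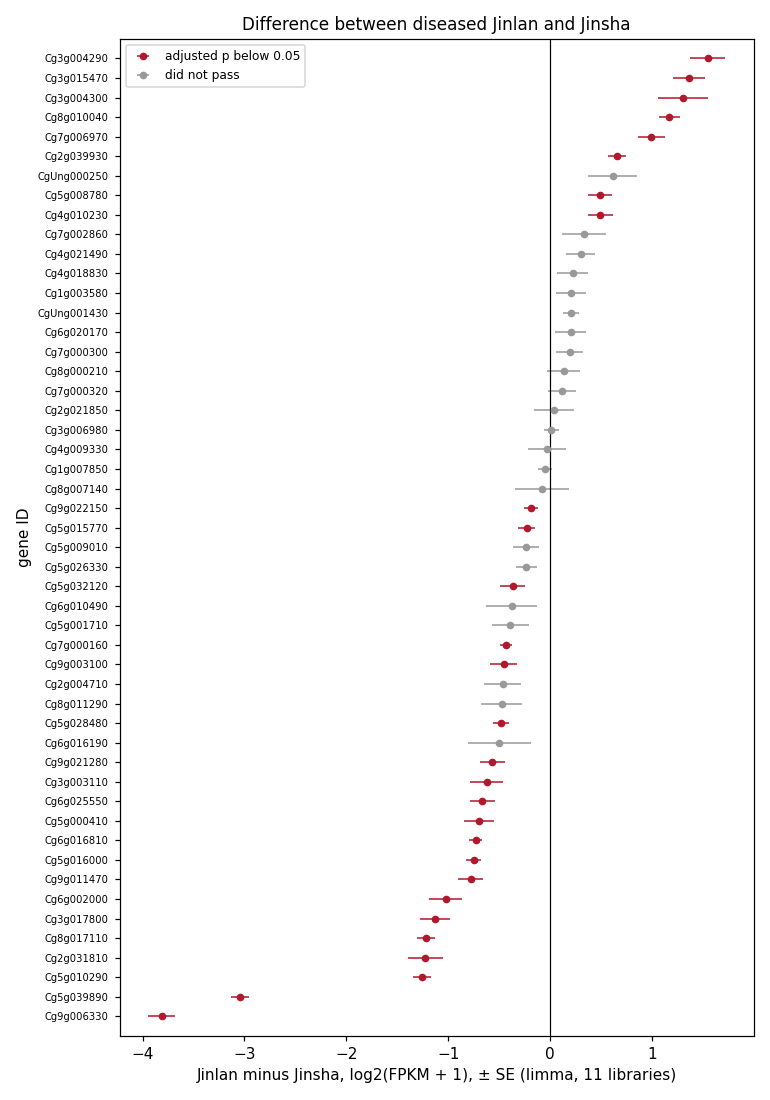
Log2 difference in FPKM + 1 between diseased Jinlan and diseased Jinsha for each member, with its standard error from the fit of 11 libraries; values below 0 are lower in Jinlan. The 28 members that passed an adjusted p of 0.05 are red, 20 to the left of 0 and 8 to the right, and Cg9g006330 and Cg5g039890 lie far to the left of the rest.

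The library labelled Taoxi control 1 held every member well below the other controls. Its level was 0.105 to 0.382 times the mean of Taoxi controls 2 and 3, with a median of 0.172 and quartiles of 0.156 and 0.225, and below 0.5 for all 50. Over the same members Taoxi control 3 was a median of 0.954 times Taoxi control 2. Controls 2 and 3 entered the choice of members through their mean and Taoxi control 1 did not, so these ratios are not on the same footing. Over all IDs tested Taoxi control 1 was a median of 1.11 times the mean of controls 2 and 3. On the log2(FPKM + 1) scale it was nearer to Jinlan than to controls 2 and 3 for 46 members, and nearer to Jinsha for 43. The shares of all IDs were not computed for these 2 counts. Taoxi control 1 was not as low as the other cultivars, at a median of 3.53 times the Jinlan mean and 2.48 times the Jinsha mean.

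The ratio was lowest for Cg3g003110 and Cg5g039890. Cg3g003110 stood in Taoxi control 1 at 21.0 FPKM, against 176 and 224 FPKM in controls 2 and 3 of Taoxi. Diseased Taoxi held it at 112, 177 and 134 FPKM, Jinlan at 3.23, 2.74 and 4.17 FPKM and Jinsha at 5.94, 5.70 and 5.42 FPKM. Cg5g039890 was at 48.3 FPKM in Taoxi control 1. Both are members with a wide gap between Taoxi and Jinlan.

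The ratio was highest for Cg3g006980, at 315 FPKM in Taoxi control 1 (0.382 of controls 2 and 3), and for CgUng001430. The latter stood in Taoxi control 1 at 49.5 FPKM (0.317 of controls 2 and 3), against 167 and 145 FPKM in controls 2 and 3 of Taoxi. It was at 190.1, 197 and 209 FPKM in diseased Taoxi and at 31.2, 35.5 and 33.8 FPKM in Jinlan, and Jinsha held it at 31.9, 27.8 and 27.3 FPKM. Here the gap between the cultivars was among the narrowest of the members.

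The position of Taoxi control 1 was also measured as a share of the way from the Jinlan mean up to the mean of controls 2 and 3, in FPKM. This share varied less between the quartiles of the members, though not over their whole range. It was taken towards Jinlan only, and none was computed towards Jinsha. The share had a median of 13.8%, quartiles of 12.3 and 15.2%, and a range of 6.07 to 21.95%. The share was 14.5% for Cg9g006330, the member with the largest ratio of diseased Taoxi to Jinlan. It was 13.0% for CgUng001430, the member with the smallest. The members at the ends of the ratio of controls 2 and 3 to Jinlan lay further apart. Their shares were 11.46% for Cg5g039890, with the largest such ratio, and 19.83% for Cg3g006980, with the smallest. Cg9g006330 was also the single member that Taoxi control 1 did not hold above all Jinlan and Jinsha libraries: it stood there at 30.8 FPKM, 12.6 times the Jinlan mean and 0.649 times the Jinsha mean. With 1 such library there is no replicate check of these values and no test was made. What set this library apart was not tested.

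**Figure D4:**
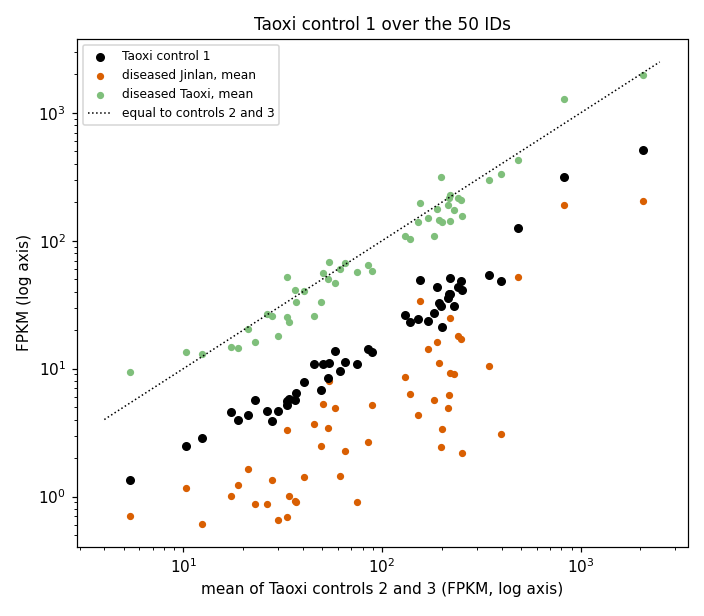
FPKM of each member in Taoxi control 1 (black), the mean of diseased Jinlan (orange) and the mean of diseased Taoxi (green) against the mean of Taoxi controls 2 and 3, on log axes; the dotted line marks equality with controls 2 and 3. The black points run below the line at 0.105 to 0.382 times controls 2 and 3, above the orange points and below the green ones.

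The members were spread over all ID prefixes. The prefix Cg5g held 11 of the 50 (22%, against 17.3% of the 16226 Cg IDs tested), Cg3g and Cg6g held 6 each (12%, against 9.20 and 9.13%), and Cg7g, Cg8g and Cg9g held 5 each. Cg2g held 4 (8%, against 16.9%), Cg4g also 4, and Cg1g and CgUng 2 each. ID numbers ran in steps of 10 in 99.9% of successive Cg IDs of the table. No run of 3 members within 10 ID numbers of each other was found, and 1 pair of members had successive numbers.

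That pair was Cg3g004290 and Cg3g004300, whose per-library values are given above. The FPKM of Cg3g004300 was 0.942 and 0.933 times that of Cg3g004290 in Taoxi controls 2 and 3, and 0.925, 1.14 and 1.18 times in diseased Taoxi. In Jinlan it was 0.532, 0.594 and 0.494 times, and in Jinsha 0.707, 0.581 and 0.413 times. In both IDs diseased Taoxi 3 was the highest and diseased Taoxi 1 the lowest library of its group, and both were higher in Jinlan than in Jinsha. Whether the 2 IDs share reads through like sequences was not tested, since the table holds no sequence.

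The next closest were Cg7g000300 and Cg7g000320, 20 ID numbers apart, with Cg7g000160 another 140 numbers before them. Cg7g000300 was at 32.5 and 35.9 FPKM in controls 2 and 3 of Taoxi and at 20.4, 23.5 and 26.0 FPKM in diseased Taoxi. It lay between 0.700 and 1.39 FPKM in Jinlan and between 0.580 and 0.950 FPKM in Jinsha. Cg7g000320 was at 47.9 and 51.3 FPKM in the controls, at 28.3, 41.8 and 30.1 FPKM in diseased Taoxi and at 2.38 to 2.57 FPKM in Jinlan, and Jinsha held it at 1.78 to 2.49 FPKM. In both, all 3 diseased Taoxi libraries lay below both controls, and Jinlan and Jinsha overlapped. Cg7g000160 was more abundant, at 189 and 192 FPKM in the controls, 172, 169.6 and 189.8 FPKM in diseased Taoxi, 15.7 to 17.2 FPKM in Jinlan and 22.1 FPKM in each Jinsha library.

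The IDs next to a member by number were mostly unlike it. Of 97 neighbouring IDs that were not members, 59 entered the fit. Their median for the smaller of the differences from Jinlan and Jinsha was -0.30, against -0.25 over all Cg IDs tested. A difference of 1 or more in favour of Taoxi was seen in 10 of the 59 (16.9%, against 5.92% of all Cg IDs tested), and one of 2.5 or more in 3. Those 3 were Cg9g006320, Cg9g011460 and Cg7g000150, named after their values were seen. Each was left out of the members by the floor of 0.5 FPKM. Among all 30123 Cg IDs, tested or not, 127 reached 2.5 against both cultivars, the members included. The share of the tested Cg IDs at 2.5 or more was not computed, so nothing is read from the count of 3. Cg9g006320 and Cg7g000150 met the filter of the fit only through Taoxi.

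Cg9g006320, next to Cg9g006330, was at 12.1 and 12.4 FPKM in controls 2 and 3 of Taoxi, at 15.4, 17.7 and 21.3 FPKM in diseased Taoxi and at 0.126 to 0.238 FPKM in Jinlan, and Jinsha held it at 0.355 to 0.533 FPKM. Like its neighbour it was higher in all diseased Taoxi libraries than in both controls, and every Jinlan library lay below every Jinsha library. Its fitted difference between Jinlan and Jinsha was -0.30 ± 0.11 (SE, limma adjusted p = 0.0435). Levels this near 0 limit any comparison of that difference with the one of Cg9g006330. Cg9g011460, next to Cg9g011470, was at 37.8 and 25.3 FPKM in the controls and at 40.3, 30.1 and 31.3 FPKM in diseased Taoxi. It was listed at 0 in 2 Jinlan libraries and at 1.14 FPKM in the other, and was at 2.31, 2.91 and 1.97 FPKM in Jinsha. Its neighbour Cg9g011470 was likewise lower in Jinlan than in Jinsha, with a difference of -0.78 (limma adjusted p = 0.000383). Cg7g000150, next to Cg7g000160, was at 8.25 and 5.72 FPKM in the controls, at 6.06, 5.18 and 7.43 FPKM in diseased Taoxi, and was listed at 0 to 0.525 FPKM in Jinlan. Jinsha held it at 0.0813 to 0.426 FPKM, overlapping with Jinlan. Its fitted difference between Jinlan and Jinsha was -0.04 ± 0.19 (SE, limma adjusted p = 0.875). At levels this near 0 log2(FPKM + 1) leaves little room for a difference, so Cg7g000150 and Cg7g000160 cannot be compared in this. Cg7g000160, which was far more abundant, was lower in Jinlan, with a difference of -0.43 ± 0.06 (SE, limma adjusted p = 0.000179).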

How the data were processed

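Fruit RNA was isolated with an RNeasy kit and sequenced from SMARTer libraries, per the labels' protocols. The authors deposited 1 table of FPKM values, and the sources used here do not give the aligner, counter, build or annotation. Another 6 columns of it, with no labelled sample, were not used. Columns were matched to samples by title and grouped by cultivar and treatment.

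From the deposited FPKM, 17362 IDs were kept that reached 1 FPKM in 3 or more of 11 libraries (without Taoxi control 1). The model used log2(FPKM + 1), which understates the differences of low genes. One mean per group was fitted with limma 3.58.1 in R 4.3.3 (mean-variance trend, two-sided, Benjamini-Hochberg adjusted p below 0.05 over all IDs tested), and the fit was tested on simulated data. The members, lists and tests were chosen with earlier results of these data known. Members were named by rule: the extremes of level, of gap, of spread, of Jinlan against Jinsha and of the Taoxi control 1 ratio, those next to the limit, and the closest ID pairs. Lists of pathways and of tissue markers could not be filled, as the IDs carry no names. Alternatives were other pseudocounts, filters, scalings, limits and fits, the replicate number as a block, and leaving out each library. Figures were drawn with matplotlib 3.10.9.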

Additional observations from a re-analysis of the deposited data

How the results depend on the processing

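The number of members was 50, and 113 with a limit of 2 and 31 with a limit of 3 on the cultivar difference. The other 22 settings gave 34 to 71, and leaving out each library in turn gave 47 to 56, of which 44 to 50 were shared with the 50. Members lower and higher in Jinlan than in Jinsha numbered 20 and 8, but 2 and 0 (limma) in the fit of all 12 libraries. They numbered 16 to 18 and 8 to 10 when each Jinlan or Jinsha library was left out. Of all 17362 IDs, the fits with a library left out called 2285 to 2554 lower and 4877 to 5267 higher. The main fit called 2777 lower and 5815 higher. All 28 members that passed in the main fit kept their direction in every setting run, and 24 passed in every setting that tested them but the fit of 12 libraries. Cg5g015770, Cg5g032120, Cg9g003100 and Cg9g022150 did not. With the replicate number as a block, 18 members were lower and 8 higher, against 2661 lower and 5476 higher of all 17362 IDs. The replicate number did not pair the libraries, whose deviations correlated at 0.02, -0.16 and -0.06. The median of Jinlan minus Jinsha, -0.23, became -0.27 and -0.31 with pseudocounts of 0.5 and 0.1, -0.37 with a filter on the Jinlan and Jinsha libraries, which 43 members met, and -0.31, -0.28, -0.32 and -0.27 with median-ratio, upper-quartile, quantile and TPM scaling. It was -0.24 to -0.21 with a library left out. The median ratio of Taoxi control 1 to controls 2 and 3, 0.172, was 0.153 and 0.157 with median-ratio and upper-quartile scaling, and 0.187 and 0.169 against control 3 or control 2 alone. The median of diseased Taoxi minus Taoxi controls 2 and 3, -0.17, was -0.21 and -0.23 with these scalings. It was -0.23 to -0.13 with a further Taoxi library left out, and Taoxi control 1 entered none of these. The cause of these shifts was not tested. Depth is unknown, so members near 0.5 FPKM rest on an unknown number of reads.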
